A study of Mus musculus with 16 samples.

Results

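Short- and medium-chain acyl-CoA synthetases were described here by 7 genes, Acsm3, Acsm5, Acss1, Acss2, Acss3, Acsf2 and Acsf3, of the 27150 genes in the deposited mRNA table of mouse epididymal fat. They were found by gene name, and the transcripts of each gene identifier were summed. The group was chosen by a measured value: Acsm3 had been among the largest decreases on high-fat diet, and in the comparison described here it ranked 34 by log2 fold change among the 1638 genes that were lower on that diet. The values of that diet comparison are therefore given as a description, with nothing read from them. All 7 genes passed the filter on low counts, with 51 to 5300 counts per gene in the 15 libraries used.

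RNA of epididymal white fat, the visceral pad beside the epididymis, was sequenced from male mice of the strain C57BL/6 in 4 groups: normal diet, high-fat diet (HFD), HFD with metformin and HFD with resveratrol. All mice were 6 weeks old and around 22 g at purchase. The diet with 60% fat ran for 8 weeks before treatment, and both treated groups, which share this diet with the HFD group, then received metformin (a biguanide used against diabetes) or resveratrol (a plant polyphenol) for 6 weeks. Doses, the age at collection and a vehicle treatment of the other 2 groups are not given in the labels. Each group had 4 libraries, and resveratrol 4 was left out of means and tests for its Crisp1, a gene of the epididymis. Crisp1 stood there at 12131 CPM (mRNA counts scaled to a common library total). It was at 15.2 to 16.3 CPM in the 4 metformin libraries and at most at 0.178 CPM in all others. One library of HFD and 1 of metformin carried an animal code that matches no sample title; they are called HFD unmatched and metformin unmatched, and they count in their groups. The first number of the animal code is shared by HFD 1 to 3, by normal diet 1 to 3, by metformin 1 and unmatched and by resveratrol 1 and 2, and the labels do not say what it stands for.

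An acyl-CoA synthetase uses ATP to join a free carboxylic acid to coenzyme A, the step that an acid must pass before it can be oxidised, elongated or attached to another molecule. The chain length of the acid divides the family: the ACSS enzymes act on acetate and propionate, and the ACSM enzymes on medium-chain acids such as hexanoate and octanoate, inside mitochondria. In white fat, acetate activated in the cytosol or nucleus can feed lipid synthesis and protein acetylation, while acetate and propionate activated in mitochondria can enter the citric acid cycle. Acss2 is a known target of the sterol regulatory element-binding proteins (SREBPs), the transcription factors of lipid synthesis.

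The 250 bases before the RefSeq start (build GRCm38.p6, plus strand, 5′ to 3′) are shown for Acsm3 and Acsm5, which were lower on HFD, and for Acss2, which was higher. Capitals mark the matches to the motifs searched on both strands. The Acsm3 window is chr7:119760673-119760922, the Acsm5 window chr7:119526015-119526264 and the Acss2 window chr2:155517793-155518042.
Acsm3: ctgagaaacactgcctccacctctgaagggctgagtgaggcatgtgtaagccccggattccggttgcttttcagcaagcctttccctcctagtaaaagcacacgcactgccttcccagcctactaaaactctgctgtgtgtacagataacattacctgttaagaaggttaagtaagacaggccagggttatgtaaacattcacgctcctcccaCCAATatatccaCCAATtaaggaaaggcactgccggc
Acsm5: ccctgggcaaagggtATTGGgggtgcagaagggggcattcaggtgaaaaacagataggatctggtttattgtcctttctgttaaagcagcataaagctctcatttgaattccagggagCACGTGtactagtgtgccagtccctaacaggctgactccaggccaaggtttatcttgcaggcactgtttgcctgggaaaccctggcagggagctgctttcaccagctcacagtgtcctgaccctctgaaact
Acss2: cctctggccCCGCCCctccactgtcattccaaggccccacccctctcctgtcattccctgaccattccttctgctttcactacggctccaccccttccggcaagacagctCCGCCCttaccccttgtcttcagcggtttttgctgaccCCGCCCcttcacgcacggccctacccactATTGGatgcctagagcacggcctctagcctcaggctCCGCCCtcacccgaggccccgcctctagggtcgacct
Acsm3 held the CCAAT box (CCAAT) starting 37 and 25 bases before the start. Acsm5 held an E-box (CACGTG) at 132 bases and a CCAAT box on the opposite strand (read here as ATTGG) at 235 bases, and its RefSeq start lies inside the span of the deposited gene, downstream of that gene's first base. Acss2, of whose window the last 95 bases lie inside the deposited gene, held GC boxes (GGGCGG, read here as CCGCCC on the opposite strand) at 241, 140, 102 and 37 bases and a CCAAT box at 73 bases. Among 32851 RefSeq promoter windows of this length, 33.8% held a CCAAT box, 32.7% a GC box and 6.02% an E-box. The core of the sterol regulatory element, searched as TCACNCCAC, was in 1.05% of all windows and in none of the 6 members with a window, which says only that these letters were not in these 250 bases. The matches do not overlap in the 3 windows shown, and they describe letters, not binding.

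Depth ranged from 13350585 to 20531032 mRNA counts per library. The adipocyte markers (12 genes, Adipoq and Plin1 among them) summed to 19316 to 38313 CPM in the 15 libraries used and to 1200 CPM in resveratrol 4, whose level of every member except Acss1 was below that of all other resveratrol libraries. Macrophage markers (12 genes) summed to 2878 to 3267 CPM in HFD 1 to 3, to 1276 CPM in HFD unmatched and to 869 to 1705 CPM in the other groups. Mesothelial markers summed to 31.5 to 85.9 CPM in HFD 1 to 3 and to 369 CPM in HFD unmatched. They were also low in metformin 1 (85.8 CPM) and resveratrol 3 (18.1 CPM), against 179 to 389 CPM in the other libraries used. Markers of motile ciliated epithelium summed to 459 to 1251 CPM in normal diet 2, metformin 2, 4 and unmatched and resveratrol 2, against 14 to 31.8 CPM in the other 10 libraries used. Spermatogenic cell markers summed to 2505 CPM in metformin 2 and to at most 95.2 CPM in the other libraries used. Seminal vesicle markers summed to 1427 CPM in normal diet 4, 351 CPM in normal diet 2 and at most 52.1 CPM in the others. Retina markers, searched because the extraction text names retina, reached at most 8.26 CPM in these 15 libraries, and skeletal muscle markers 121 CPM. The part of these cells and of the 2 code-only libraries in the results was not tested. Libraries and settings that change the calls are given with the results or in the closing section, for the gene lists only in part.

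Per length of transcript, Acss3 was the most abundant member on normal diet and Acss2 on HFD. Levels between genes are compared as CPM divided by the length of each transcript in kilobases, called the per-length level. On normal diet Acss3 stood at 76.8 ± 8.46 (SD, n = 4), Acss2 at 39.6 ± 19.9 and Acsm3 at 38.4 ± 9.23, with Acss2 overlapping both of its neighbours. Acsm5 followed at 17.1 ± 1.93, Acsf2 at 14.9 ± 2.14, Acsf3 at 13.1 ± 0.394 and Acss1 at 7.38 ± 0.875, where the range of Acsf2 overlapped those of Acsm5 and Acsf3 and Acss1 lay below all. On HFD the order of the means was Acss2 at 68.8 ± 11.5, Acss3 at 35.4 ± 6.83, Acsf2 at 14.4 ± 0.897, Acsf3 at 12.5 ± 0.826, Acss1 at 9.91 ± 2.37, Acsm5 at 5.50 ± 1.70 and Acsm3 at 3.43 ± 3.93, so that Acsm3 moved from near Acss2 to the lowest of the 7. There Acss2 and Acss3 were separate from each other and from the rest, while each of the 5 lower members overlapped its neighbours. With metformin Acss3 stood at 49.3 ± 9.44, Acss2 at 37.4 ± 7.33 and Acsm3 at 8.00 ± 4.85, and with resveratrol at 63.9 ± 16.9, 40.1 ± 2.73 and 19.6 ± 7.75. As a share of the summed level of the 7 members, Acsm3 held 18.4% ± 2.70 on normal diet, 2.30% ± 2.66 on HFD, 5.48% ± 2.88 with metformin and 11.1% ± 3.01 with resveratrol (n = 4, 4, 4 and 3). Acss2 held 18.5% ± 5.98, 45.9% ± 6.97, 26.2% ± 4.95 and 23.5% ± 3.47 in the same order. The sum itself was 207 ± 34, 150.0 ± 6.05, 143 ± 12.9 and 173 ± 23.4.

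**Figure D1:**
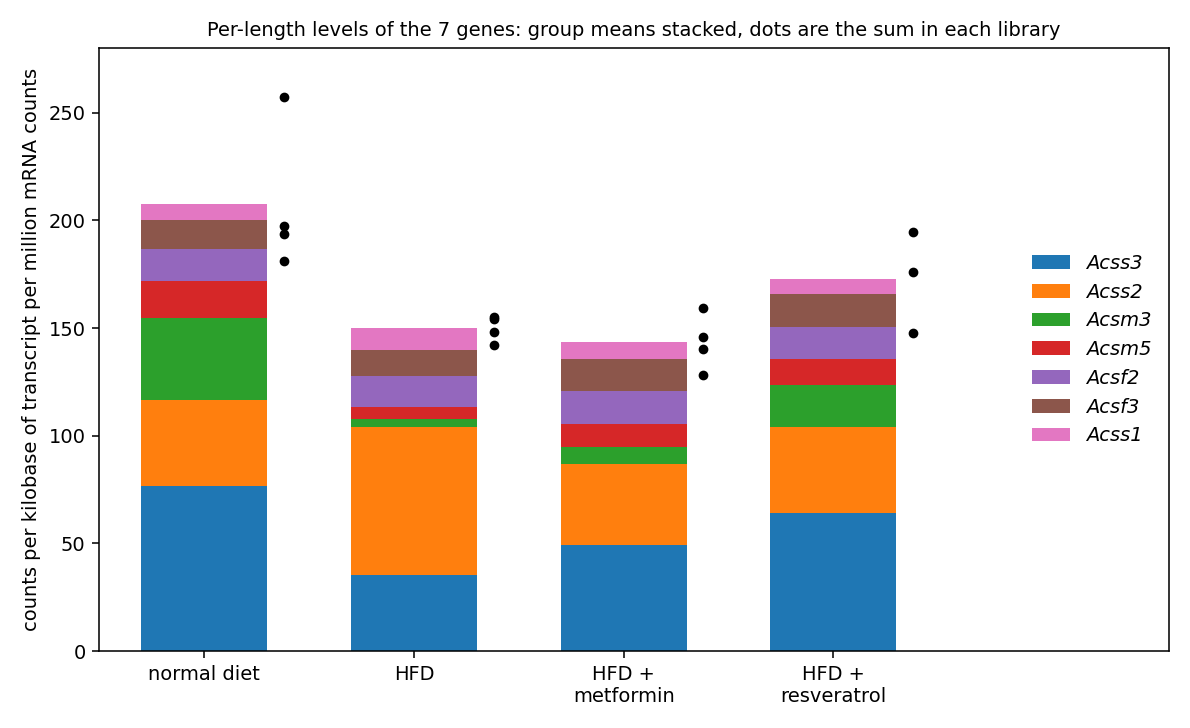
Stacked bars give the group mean of each of the 7 genes as a per-length level (CPM per kilobase of transcript), and dots beside a bar the sum of the 7 genes in each library (n = 4, 4, 4 and 3, without resveratrol 4). The Acss2 segment is 68.8 of a summed level of 150.0 on HFD and 39.6 of 207 on normal diet, and the Acsm3 segment is thinnest on HFD.

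Acsm3 encodes a mitochondrial medium-chain synthetase (chr7:119760923-119787513, plus strand, GRCm38). Its TMM-normalised level was 125, 63.6, 105 and 78.7 CPM in normal diet 1 to 4, and 2.59, 3.69, 2.87 and 22.7 CPM in HFD 1, 2, 3 and unmatched. Every normal diet library was above every HFD library, and HFD unmatched stood far above the other 3 of its group. Metformin 1, 2, 4 and unmatched had 35.4, 14.3, 8.31 and 12.3 CPM, within and above the HFD range. Resveratrol 1 to 3 had 47.3, 26.6 and 70.6 CPM, all above the HFD libraries, 2 of them below every normal diet library, and resveratrol 4 had 0.958 CPM. The fitted difference of HFD from normal diet was a log2 fold change of -3.55 (SE 0.73), and -4.94 (SE 0.56) without HFD unmatched. With the 3 titled HFD libraries alone, the HFD mean was 3.05 ± 0.572 CPM (n = 3), 30.4-fold below the normal diet mean, against 11.7-fold with all 4. These 3 low levels rest on 51, 72 and 55 counts. Markers of kidney and liver, tissues rich in medium-chain synthetases (8 genes in the table), summed to 187 to 263 CPM in HFD 1 to 3, to 1571 CPM in HFD unmatched and to 1282 to 4087 CPM in the other libraries used. Most of that sum was Cyp2e1, which fat also expresses, or Alb and Lrp2, while Umod and Slc34a1 of the kidney were at 0 in the HFD libraries and at most at 4.42 CPM elsewhere; the part of such cells in the Acsm3 level was not tested. In bulk tissue, fewer cells of a type and less RNA per cell cannot be told apart.

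**Figure D2:**
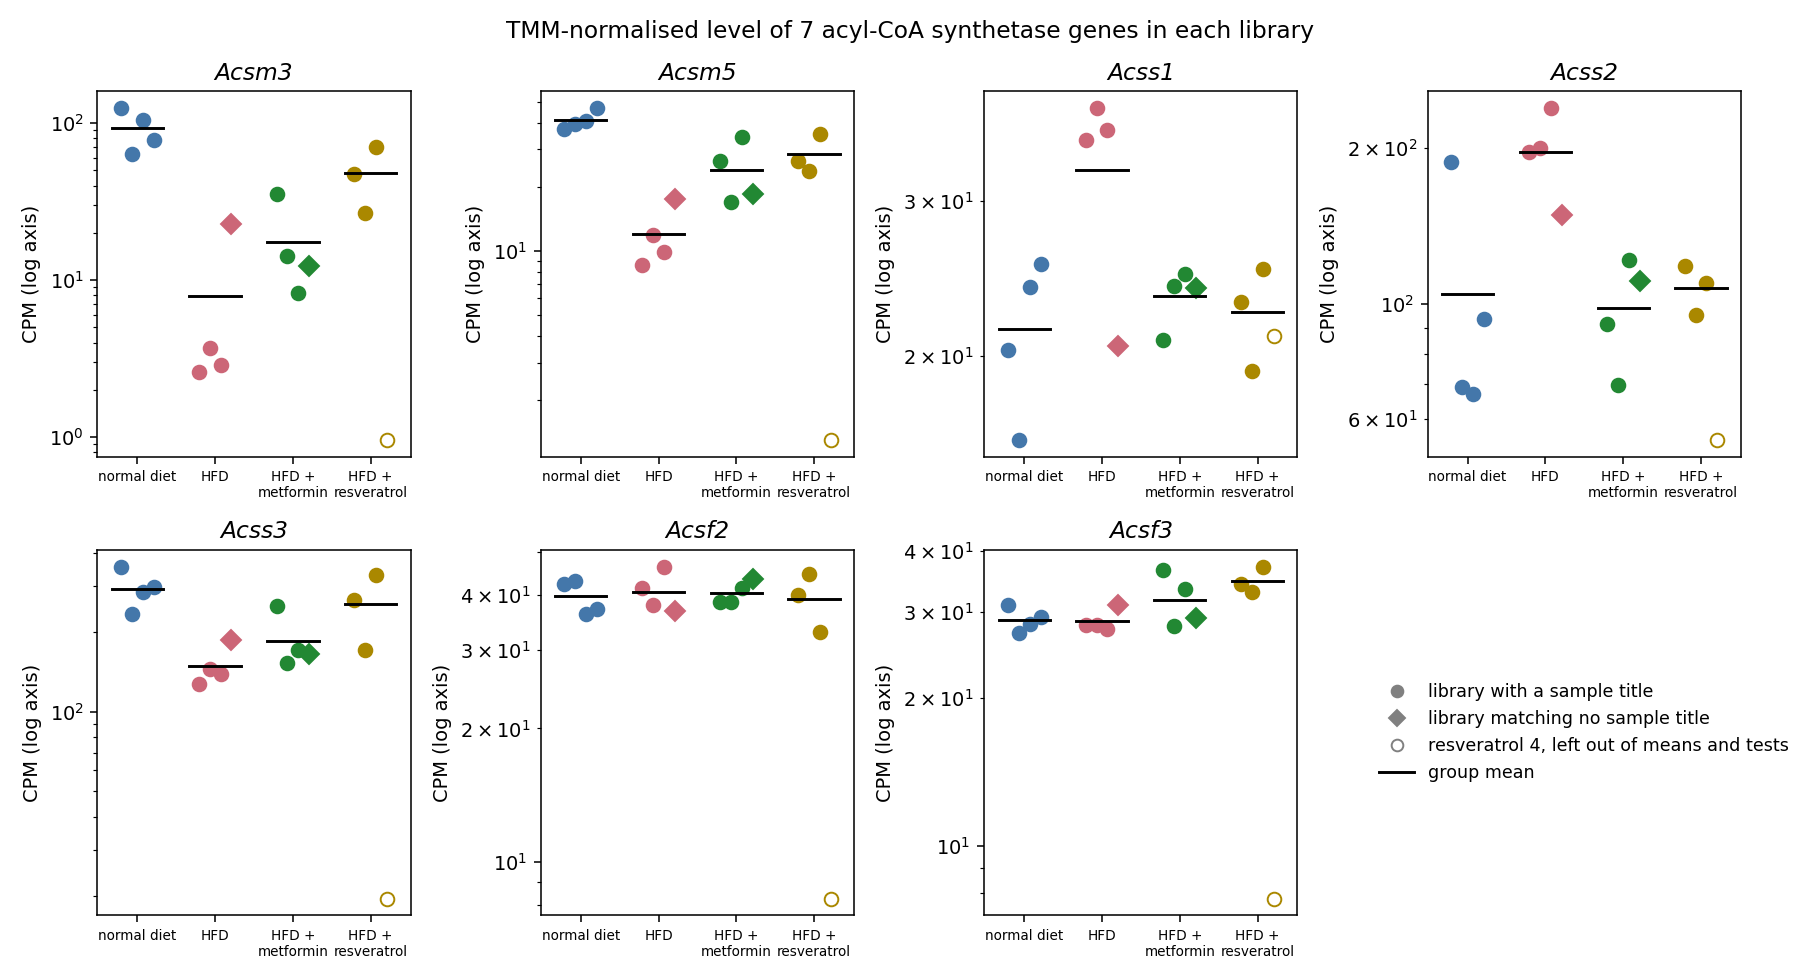
TMM-normalised CPM on log axes for the 7 genes, one point per library in each of the 4 groups, with horizontal lines at group means. Diamonds are the libraries that match no sample title, and open circles are resveratrol 4, which is in no mean; Acsm3 on HFD lies between 2.59 and 22.7 CPM, below all normal diet libraries.

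Acsm5, another mitochondrial medium-chain synthetase, lies upstream of Acsm3 on the same chromosome and strand (chr7:119519463-119545551). Its level was 37.2, 39.2, 40.9 and 46.8 CPM on normal diet and 8.63, 11.9, 9.92 and 17.6 CPM in HFD 1, 2, 3 and unmatched. The ranges were separate, and HFD unmatched was again the highest of its group. With metformin the libraries 1, 2, 4 and unmatched had 26.5, 17, 34.1 and 18.6 CPM, and resveratrol 1 to 3 had 26.4, 23.7 and 35.5 CPM. All 3 resveratrol libraries were above all HFD libraries, metformin 2 was below HFD unmatched, and both treated groups stayed below every normal diet library. HFD differed from normal diet by a log2 fold change of -1.77 (SE 0.25). The mean levels were 41 ± 4.14, 12.0 ± 3.97, 24.1 ± 7.88 and 28.5 ± 6.19 CPM in normal diet, HFD, metformin and resveratrol (n = 4, 4, 4 and 3).

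Acss3 encodes the mitochondrial synthetase of the family that prefers propionate (chr10:106933517-107123668). Normal diet 1 to 4 had 356, 235, 284 and 297 CPM, and HFD 1, 2, 3 and unmatched had 127, 145, 139 and 188 CPM, with no overlap. Metformin 1 stood at 252 CPM while metformin 2, 4 and unmatched had 153, 171 and 166 CPM, inside the HFD range. Resveratrol 1 to 3 had 266, 171 and 330.0 CPM, of which resveratrol 2 fell inside the HFD range and the other 2 inside that of normal diet. The log2 fold change of HFD from normal diet was -0.97 (SE 0.22). A long non-coding transcript is listed at the lower-coordinate end of the gene span (NONMMUT007218.2, chr10:106933517-106935952). This transcript had 159 ± 31.7 CPM on normal diet and 78.5 ± 5.25 CPM on HFD (n = 4 each), 107 ± 27.2 CPM with metformin (n = 4) and 133 ± 38.8 CPM with resveratrol (n = 3). Its span shares bases with Acss3 and the strand setting of the counting is not given, so its reads and those of Acss3 cannot be told apart.

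Acss2 encodes the synthetase that activates acetate in the cytosol and nucleus (chr2:155517948-155585724, plus strand). Its level was 197, 200.5, 239 and 149 CPM in HFD 1, 2, 3 and unmatched, and 188, 68.9, 66.9 and 93.5 CPM in normal diet 1 to 4. Normal diet 1 lay inside the HFD range, above the other 3 normal diet libraries. Metformin 1, 2, 4 and unmatched had 91.3, 69.6, 122 and 111 CPM, and resveratrol 1 to 3 had 118, 95 and 109.6 CPM. Each of these 7 treated libraries was below each HFD library. HFD differed from normal diet by a log2 fold change of 0.91 (SE 0.30), and by 1.35 without normal diet 1.

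Acss1 encodes the mitochondrial acetate synthetase (chr2:150618105-150668258, minus strand) and had the lowest per-length level of the 7 on normal diet. HFD 1 to 3 stood at 35.2, 38.2 and 36.1 CPM, above all other libraries, while HFD unmatched had 20.5 CPM. Normal diet 1 to 4 had 20.3, 16.1, 24 and 25.4 CPM, metformin 1, 2, 4 and unmatched 20.8, 24, 24.8 and 23.9 CPM, and resveratrol 1 to 3 had 23, 19.2 and 25.1 CPM. The 3 libraries in which Acss1 was high are the same 3 in which macrophage markers summed to 2878 CPM or more. Fibroblast and preadipocyte markers (8 genes) were also highest in these 3, at 6410 to 6525 CPM against 2580 to 5233 CPM in the other libraries used, and the part of either cell type in the Acss1 level was not tested. HFD differed from normal diet by a log2 fold change of 0.60 (SE 0.19), and by 0.76 (SE 0.14) without HFD unmatched.

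Acsf2, a mitochondrial enzyme for medium-chain acids (chr11:94557102-94601871, minus strand), and Acsf3, the mitochondrial malonyl-CoA synthetase that feeds mitochondrial fatty acid synthesis (chr8:122775486-122817880, plus strand), varied least. Acsf2 had a mean of 39.7 ± 3.49 CPM on normal diet, 40.6 ± 4.26 on HFD, 40.5 ± 2.43 with metformin (n = 4 each) and 39.2 ± 5.85 with resveratrol (n = 3), and all 4 ranges overlapped. Acsf3 had 28.9 ± 1.62, 28.7 ± 1.5, 31.8 ± 3.87 and 34.7 ± 2.17 CPM in the same order. Resveratrol 1 to 3, at 34.2, 32.8 and 37.1 CPM of Acsf3, were above every normal diet and HFD library. The log2 fold changes of HFD from normal diet were 0.03 for Acsf2, with a 95% interval from -0.19 to 0.26, and -0.01 for Acsf3, from -0.20 to 0.18.

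Across all genes, edgeR's quasi-likelihood test with Benjamini-Hochberg adjustment called 4050 of 17535 genes between HFD and normal diet at an adjusted p of 0.05, which is 23.1%, and 5 of the 7 members: Acsm3, Acsm5 and Acss3 lower and Acss1 and Acss2 higher. This contrast chose the group, and nothing is read from the count. With resveratrol 4 in the fit the share over all genes was 8.83%, and Acsm3 was the 1 member called.

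Metformin was compared with HFD to see what the drug changed on the same diet. The HFD libraries are those of the contrast that chose Acsm3 for its low level there, which favours a rise of Acsm3. The other members were also chosen with earlier results of these data known, so their calls are not independent of that choice. The test called 13.9% of all genes, and 2 of the 7 members. Acsm5 rose by a log2 fold change of 1.00 (SE 0.25, adjusted p = 0.0248), with 3 of 4 metformin libraries above all HFD libraries, and Acss2 fell by 1.00 (SE 0.30, adjusted p = 0.0449), with 4 of 4 below. Acsm3 had a log2 fold change of 1.15 (SE 0.68, adjusted p = 0.247), Acss1 -0.48 (SE 0.19, adjusted p = 0.0914) and Acss3 0.31 (SE 0.21, adjusted p = 0.326). The differences of Acsf2 (-0.01, 95% interval -0.23 to 0.22) and Acsf3 (0.14, -0.05 to 0.34) were within the spread between libraries. Both calls were lost in the fit with resveratrol 4, where 1.03% of genes and 0 members were called (4154 genes had an unadjusted p under 0.05), and without HFD 1, 2 or 3. Without HFD 1, 2 or 3 the calls over all genes fell as well, from 2442 to 542, 595 and 469. With resveratrol 4 the fitted values were 1.01 for Acsm5 (SE 0.60, adjusted p = 0.332) and -0.99 for Acss2 (SE 0.33, adjusted p = 0.107), close to those above with larger errors. Without the libraries rich in ciliated markers, which leaves 1 metformin library, assumed to vary like the other groups, they were 1.15 (adjusted p = 0.273) and -1.10 (adjusted p = 0.319), and 18 genes in all were called. With only the HFD and metformin libraries Acsm5 had 1.02 (adjusted p = 0.0695). The Acsm5 call was also lost without metformin 4 (adjusted p = 0.0528), and over leaving out each library its adjusted p ranged from 0.00421 to 0.0861. The Acss2 call was also lost without normal diet 4, without metformin 1, 2 or unmatched and without resveratrol 1 or 3, with adjusted p from 0.0157 to 0.127. Without HFD unmatched 2999 of 17505 genes in all were called, and 4 members. Acsm3 rose by 2.54 (adjusted p = 0.00646) and Acss1 fell by 0.63 (adjusted p = 0.00963) on the log2 scale, beside Acsm5 and Acss2.

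Resveratrol was compared with HFD in the same way, with 3 resveratrol libraries and the same HFD libraries as above. The limit given above for the choice of the members holds here too. The test called 4.17% of all genes and 1 of the 7 members. Acsm5 rose by a log2 fold change of 1.25 (SE 0.27, adjusted p = 0.0365), with 3 of 3 resveratrol libraries above all HFD libraries. Acsm3 had the largest fitted difference of the 7, 2.61 (SE 0.73), and did not pass the test (adjusted p = 0.0611). All 3 resveratrol libraries were above all HFD libraries. Acsm3 was chosen for its low level in those HFD libraries, which favours such a gap and the calls of Acsm3 below. DESeq2 called 2153 of 27004 genes in all, among them Acsm3 (2.60, adjusted p = 0.00365), Acsm5, Acss3 (adjusted p = 0.0128), Acsf3 (adjusted p = 0.0441) and Acss2. On the 17535 genes of the edgeR fit DESeq2 called these members except Acss2, and 2137 genes in all. By edgeR Acss3 had 0.77 (SE 0.23, adjusted p = 0.0724), Acss2 -0.87 (SE 0.33, adjusted p = 0.143), Acss1 -0.53 (SE 0.20, adjusted p = 0.149) and Acsf3 0.27 (SE 0.10, adjusted p = 0.120). Acsf2 differed by -0.05, with a 95% interval from -0.30 to 0.19. The Acsm5 call was lost without HFD 1, 2 or 3 or resveratrol 1, 2 or 3 (adjusted p up to 0.136). In each of those fits only 1 or 2 genes in all were called. Over leaving out each library the Acsm5 log2 fold change was 1.07 to 1.51. The Acsm5 call was also lost with all 16 libraries, where it had 0.86 (SE 0.60) and 2.28% of genes and 0 members were called (4327 genes had an unadjusted p under 0.05). It was also lost with only the HFD and resveratrol libraries (1.27, adjusted p = 0.0671) and without the libraries rich in ciliated markers, which leaves 2 resveratrol libraries (1.37, adjusted p = 0.0837). Without HFD unmatched the calls rose over all genes, to 2066 of 17505 from 732 of 17535, and 4 members were called. These were Acsm3 at 4.00 (adjusted p = 0.00115), Acss3 at 0.92 (adjusted p = 0.0279), Acsm5 at 1.51 (adjusted p = 0.00254) and Acss1 at -0.68 (adjusted p = 0.0117). Without normal diet 1, which is in neither group but in the shared spread, Acss2 was called too, at -0.85 (adjusted p = 0.0449). That fit called 607 of 17466 genes.

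**Figure D3:**
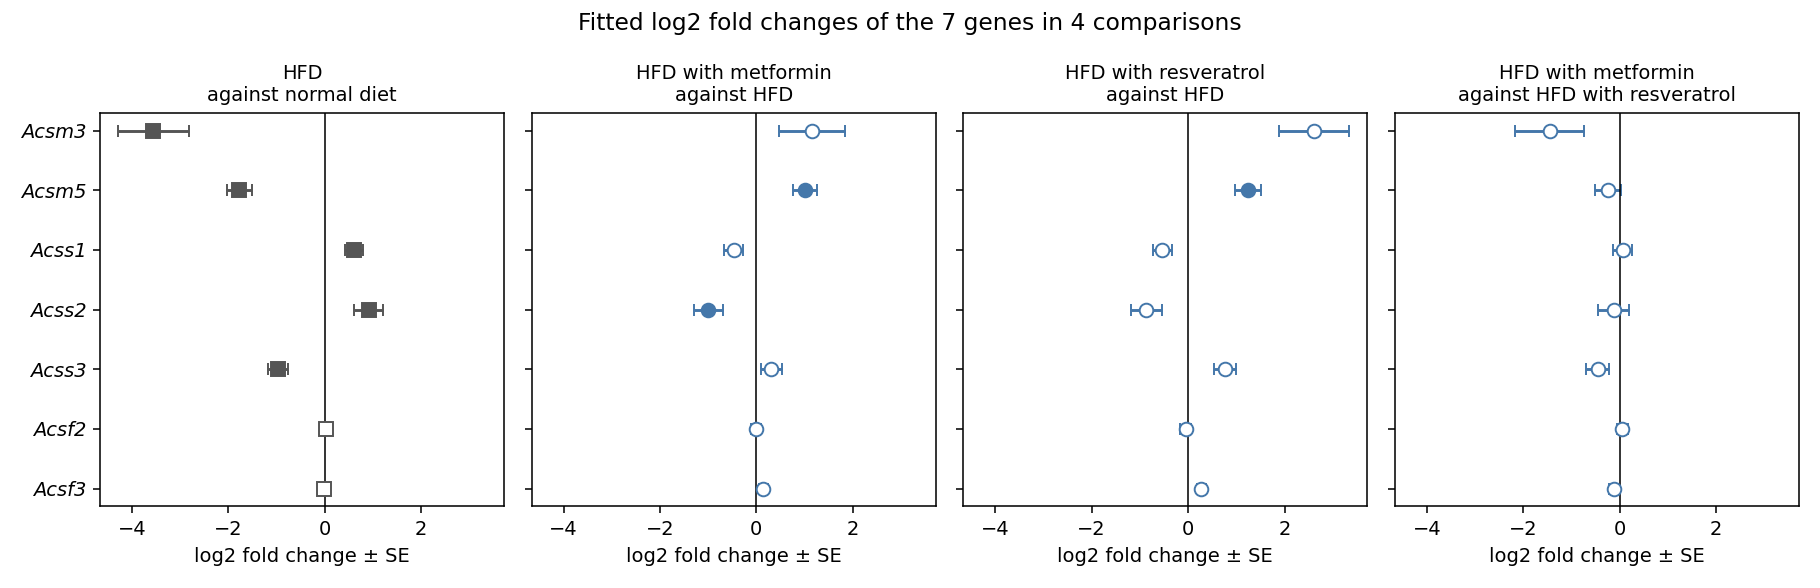
Fitted log2 fold changes with their SE for the 7 genes in 4 comparisons, in the fit of 15 libraries. Filled symbols have an adjusted p under 0.05; squares mark the diet comparison, which chose the group and is a description. With metformin, Acsm5 at 1.00 and Acss2 at -1.0 are filled, and with resveratrol Acsm5 at 1.25.

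The drugs were set against each other, with the means of neither group that chose Acsm3 but with the spread estimated over all 15 libraries. The test called 0.0114% of all genes (1228 had an unadjusted p under 0.05) and 0 members. Metformin differed from resveratrol by a log2 fold change of -1.46 for Acsm3 (SE 0.71, adjusted p = 0.713), with a 95% interval from -2.99 to 0.07, and 3 of 4 metformin libraries were below all 3 resveratrol libraries. For Acss3 the difference was -0.46 (SE 0.23, interval -0.96 to 0.03, adjusted p = 0.716). The intervals of the other 5 members were -0.82 to 0.33 for Acsm5, -0.38 to 0.50 for Acss1, -0.82 to 0.56 for Acss2, -0.20 to 0.29 for Acsf2 and -0.34 to 0.08 for Acsf3. DESeq2 called 0 members as well, and in the fit of all 16 libraries the share over all genes was 0% (1263 with an unadjusted p under 0.05), with 0 members.

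Both treated groups were also set against normal diet, whose libraries took part in choosing Acsm3. With metformin 1.71% of all genes were called (3282 had an unadjusted p under 0.05) and 0 members: Acsm3 had a log2 fold change of -2.40 (SE 0.69, adjusted p = 0.0957), Acsm5 -0.77 (adjusted p = 0.127), Acss3 -0.66 (adjusted p = 0.131) and Acss2 -0.08 (adjusted p = 0.906). DESeq2 called 3 of these, Acsm3, Acsm5 and Acss3, among 1120 of 27004 genes in all. Without HFD unmatched edgeR called Acsm3 (adjusted p = 0.0176), among 388 of 17505 genes. With resveratrol 0.148% of all genes were called (1724 had an unadjusted p under 0.05) and 0 members, by DESeq2 as well; Acsm3 had -0.95 (SE 0.72, adjusted p = 0.766) and Acsm5 -0.52 (SE 0.27, adjusted p = 0.567). With all 16 libraries the shares of genes called were 0.00577% and 0%, with 0 members in each (1827 and 1844 genes had an unadjusted p under 0.05).

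The members differed in how their counts fell on the annotated transcripts. Acss1, Acsf2, Acss2 and Acss3 were carried by 1 main transcript each, with 96.6%, 95.9%, 83.4% and 79.7% of the gene's counts over the 15 libraries. The main Acss3 transcript (ENSMUST00000165067, 4696 bases) held 84.3% to 86.0% in the HFD libraries and 74.2% to 81.8% in the other groups, and the shorter ENSMUST00000044668 (2494 bases) 11.2% to 12.4% against 14.7% to 23.3%. For Acss2 the main transcript ENSMUST00000029135 held 83.4% to 89.7% on HFD and 72.2% to 83.0% on normal diet. Acsm3 counts fell mostly on ENSMUST00000063770 (71.7%), but its share ranged from 30.2% in metformin unmatched to 92.2% in normal diet 1 with no order by group. Acsm5 was split over ENSMUST00000066465, ENSMUST00000207440 and ENSMUST00000207307 at 38.5%, 27.1% and 20.6%. These transcripts share exons, so their shares depend on how the authors' counting divided the reads, while the gene sums are less open to that.

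Across the 15 libraries Acsm3, Acsm5 and Acss3 ran closely together by their log2 levels, and Acss1 and Acss2 less closely. Acsm3 ran with Acss3 at a Pearson r of 0.932 and with Acsm5 at 0.890, and Acsm5 with Acss3 at 0.850. Acss1 and Acss2 ran together at 0.647 and opposite to Acsm3, at -0.736 and -0.587. With Acss3 they had -0.526 and -0.358. By Spearman rank correlation, Acss1 had 0.446 with Acss2, -0.5 with Acsm3 and -0.404 with Acss3, while Acss2 with Acsm3 had -0.575. Acsf2 and Acsf3 had r between -0.459 and 0.446 with every other member. These are descriptions over libraries that share group, depth scaling and the code-only animals, with no test. In the plot of Acsm3 against Acsm5, HFD unmatched lies among the metformin libraries rather than beside HFD 1 to 3.

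**Figure D4:**
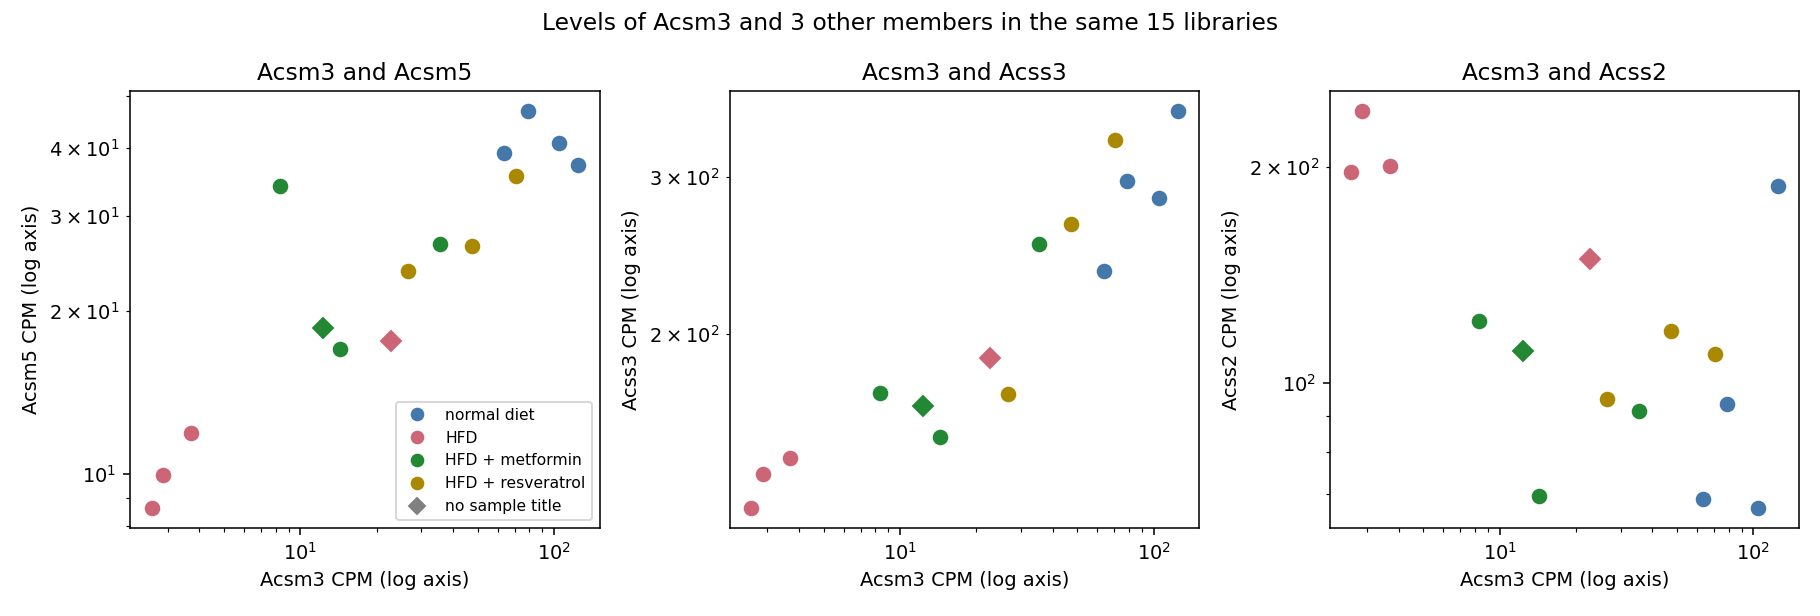
CPM of Acsm3 on the x axis against Acsm5, Acss3 and Acss2 on the y axes (log axes), 1 point per library for 15 libraries coloured by group, diamonds for libraries that match no sample title. Acsm5 and Acss3 rise with Acsm3 over the libraries (r of log2 levels 0.890 and 0.932), while Acss2 is highest in the 3 HFD libraries with Acsm3 under 4 CPM.

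For each member the 3 genes of the 17535 with the highest Pearson r of log2 CPM over the 15 libraries were taken. For Acsm3 these included Chrdl1 (0.975), a secreted antagonist of bone morphogenetic proteins with 419 ± 68.8 CPM on normal diet and 145 ± 53.8 on HFD, and Lman2l (0.974). For Acsm5 they were Asns (0.974), which makes asparagine, Sfxn1 (0.973), a mitochondrial serine carrier, and Fam13a (0.959), which went from 1314 ± 201 to 173 ± 152 CPM. Acss3 ran closest with Cnst (0.982), Eci3 (0.980), an enoyl-CoA isomerase, and Ppm1k (0.979), the phosphatase that activates branched-chain ketoacid dehydrogenase. Acss1 ran with Cmas, Galc and Igsf8 (0.940, 0.930 and 0.929) and Acss2 with Lrpap1, Gm7049 and Hephl1 (0.955, 0.942 and 0.940). The nearest genes were less close for Acsf2 (Wnt5a, 0.856) and for Acsf3 (Ttc38 at 0.916 and Pcca, a subunit of propionyl-CoA carboxylase, at 0.859).

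Other genes around these enzymes were read from 11 lists, beside the median log2 fold change of all genes, which was -0.04 for the diet, 0.04 for metformin and 0.04 for resveratrol, and the shares of all genes called, which were 23.1%, 13.9% and 4.17%. The fit without the libraries rich in ciliated markers keeps 1 metformin and 2 resveratrol libraries and called 18 and 17 genes in all against HFD, so a lost call there says little about a list, and its medians are given where they moved. Of the other short- and medium-chain synthetases 3 were tested and 0 passed in any comparison. Aacs, which activates acetoacetate, had 224 ± 17.1 CPM on normal diet, 182 ± 32.5 on HFD, 148 ± 38.8 with metformin (n = 4 each) and 177 ± 30.2 with resveratrol (n = 3). Acsm1 stayed at or under 4.11 CPM and Acsm2 at or under 0.101 CPM in these libraries. Of 11 long-chain and very-long-chain synthetases tested, Acsl5 was higher on HFD (72.2 ± 5.44 to 112 ± 14.7 CPM) and fell with metformin by 0.41 (SE 0.13, adjusted p = 0.0483) on the log2 scale, and 0 passed with resveratrol.

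SREBP regulators and targets, the list that Acss2 belongs with by its known control, held 16 genes. Its targets are mostly genes of cholesterol synthesis and uptake, so its counts do not stand for all SREBP targets. Acaca, Acacb, Fasn, Elovl6 and Scd1 of fatty acid synthesis were counted in the acetyl-CoA list below. On HFD 8 of them were higher and 0 lower, with a median log2 fold change of 0.62; Insig1 went from 95.6 ± 6.75 to 519 ± 203 CPM and Lss, a cholesterol synthesis enzyme, from 22.1 ± 5.07 to 58.1 ± 18.6 CPM. With metformin 4 fell and 0 rose (median -0.17): Lss by 1.02, Insig1 by 1.30, Mvd by 0.90 and Fdps by 0.94 on the log2 scale. With resveratrol 3 fell and 0 rose (median -0.48): Lss by 1.26, Insig1 by 1.51 and Fdps by 1.27. In the fit of all 16 libraries these counts were 4, 1 and 1, and the resveratrol median was 0.31, of the opposite sign. Without the libraries rich in ciliated markers 10 were higher and 1 lower on HFD, and the medians were 0.81, -0.48 and -0.64 for the diet, metformin and resveratrol. Without HFD unmatched 5 fell and 1 rose with metformin and 6 fell with resveratrol. Against normal diet 1 gene of the list, Hmgcs1, was higher with metformin, at 288 ± 75.0 against 132 ± 40.8 CPM. Its log2 fold change was 1.13 (SE 0.23, adjusted p = 0.0293). With resveratrol 0 differed from normal diet, and in the fit of all 16 libraries 0 did with either drug. Within cytosolic acetyl-CoA supply and use (12 genes), Hmgcs1 and Me1 were higher on HFD and Acaca and Acacb, the acetyl-CoA carboxylases, lower: Acacb went from 1009 ± 106 to 297 ± 139 CPM and Acaca from 934 ± 477 to 332 ± 53.6 CPM. In this list 0 genes passed in either drug comparison with HFD, and Hmgcs1 alone passed with metformin against normal diet.

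Acyl-CoA thioesterases, which undo the step the synthetases catalyse, had 14 tested members. On HFD 4 were lower and 0 higher, with a median of -0.49: Acot4 went from 60.6 ± 13.9 to 11.0 ± 2.67 CPM, Acot2 from 35.9 ± 2.96 to 20.2 ± 0.896 CPM and Acot6 from 15.2 ± 4.25 to 7.93 ± 1.02 CPM, and Acot3 was near 0 on HFD. With metformin 3 rose and 0 fell (median 0.46): Acot4 by a log2 fold change of 1.56 (SE 0.29, adjusted p = 0.0120), Acot2 by 0.47 (SE 0.12, adjusted p = 0.0312) and Acot6 by 0.82 (SE 0.23, adjusted p = 0.0365). With resveratrol Acot4 rose by 1.30 (SE 0.30, adjusted p = 0.0372) and 0 fell. The shares of 4 and 3 of 14 lie near those of all genes. In the fit of all 16 libraries 0 thioesterases passed with either drug, and the resveratrol median went from 0.23 to 1.26. Without the libraries rich in ciliated markers, where 13 were tested, 1 was higher and 4 lower on HFD and the medians were -0.07, -0.02 and 0.01 for the diet, metformin and resveratrol.

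Of the 10 tested genes from propionate to succinyl-CoA, the route of the acid that Acss3 activates, Suclg2, a subunit of succinate-CoA ligase, and Pccb were lower on HFD and Sucla2 and Mcee higher. Suclg2 had 42.4 ± 16.2 CPM on normal diet, 17.5 ± 2.35 on HFD, 37 ± 10.2 with metformin and 38.9 ± 8.84 with resveratrol. It rose with metformin by a log2 fold change of 1.08 (SE 0.28, adjusted p = 0.0271) and with resveratrol by 1.15 (SE 0.29, adjusted p = 0.0466). Of 15 genes of mitochondrial oxidation of short- and medium-chain acyl-CoA, 4 were higher on HFD (Hadha, Acaa2 and Decr1 among them) and 1, Acadsb, was lower, and 0 passed with either drug. In mitochondrial fatty acid synthesis and lipoylation, the route that Acsf3 feeds, Mcat alone of 9 genes was lower on HFD and rose with metformin by 0.35 (SE 0.11, adjusted p = 0.0457). In coenzyme A synthesis (9 genes) Ppcs and Coasy were higher on HFD and Pank1 rose with metformin by 1.27 (SE 0.38, adjusted p = 0.0461). Of 7 tested genes of short-chain acid transport and sensing and 3 of acyl-glycine conjugation, 0 passed in the diet comparison or with either drug. With metformin, 0 genes passed in the lists of Acsl5, Suclg2, Mcat and Pank1 in the fit of all 16 libraries. With resveratrol, 1 gene of the propionate list passed in that fit. On HFD against normal diet, 0 genes of the oxidation list passed in it. Without HFD unmatched, 0 genes of the Mcat list passed in the diet or metformin comparison, and 0 of the Pank1 list with metformin.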

How the data were processed

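Total RNA of epididymal fat was sequenced (Illumina TruSeq RNA Sample Prep Kit, per the labels' protocols) in 16 libraries of 4 groups. Titles and design text name epididymal fat, the extraction text retina and the treatment text skeletal muscle. Per the submitters' processing notes, fastp, HISAT2 and build GRCm38 were used, with no role or version stated; how reads were counted, with which annotation and strand setting, is not given in the sources used here. Per the file headers, the deposited tables hold whole-number counts and FPKM per mRNA transcript and per lncRNA transcript. The mRNA header has 1 name fewer than its cells, and 5 broken records were rejoined; columns were checked through the library totals that FPKM, counts and lengths imply (largest difference 0.0418% for 14 libraries, smallest with another library 0.492%). The authors' FPKM served for this check and for per-length levels on normal diet, where they gave the same means. A further 4 FPKM columns, of codes that match no title, were not used.

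Summing the 91879 mRNA transcripts by gene identifier gave 27150 genes. Genes were fitted with edgeR 4.0.16 (R 4.3.3; filterByExpr, TMM, robust quasi-likelihood) over 15 libraries and all 4 groups, leaving 17535 genes; p-values are two-sided and Benjamini-Hochberg adjusted over all of them, with a threshold of 0.05. The library with Crisp1 above 1000 CPM was left out. Intervals (95%, not adjusted) take the SE and the degrees of freedom implied by F and p. DESeq2 1.42.0 and other settings were alternatives, 24 in all. The scripts were tested on simulated data. Levels are TMM CPM, except those of marker genes, marker sums and per-length levels with their sum and shares. These are CPM without TMM factors. CPM of lncRNA are relative to the mRNA total. Nothing says that libraries came from separate animals beyond their codes, so p-values measure the spread between libraries.

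The members and all gene lists were chosen with earlier results of these data known. Named genes are the 7 members, the 3 genes closest to each by Pearson r (1 of them is not reported here), and up to 4 genes past the threshold per list and comparison. Promoter sequences of 6 of the 7 members come from RefSeq (GRCm38.p6). A direct repeat of AGGTCA with 1 spacer base was also searched and was in 0.0335% of windows and in no member's window.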

Additional observations from a re-analysis of the deposited data

Results flagged for a closer look

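In each group of 4 libraries, the highest and the lowest value of each member were compared with the rest of the group (21 groups of values; chance flags about 1 group in 20). Acsm3 in HFD unmatched, at 22.7 CPM, stood apart from HFD 1 to 3, with a gap to the nearest library of 0.945 of the group's range. Acsf3 in the same library, at 31 CPM, stood apart by 0.850 of the range. That library also had 1276 CPM of macrophage markers against at least 2878 CPM in HFD 1 to 3, and its part in these values was not tested.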

How the results depend on the processing

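Of the 24 alternatives, 15 left out 1 library. DESeq2 changed the tool and the low-count filter together (27004 genes tested against 17535), so it was also run on the 17535 filtered genes, an alternative chosen after the data had been seen; the other alternatives changed 1 choice each. Without the ciliated-rich libraries the metformin group has 1 library, assumed to vary like the other groups, and the resveratrol group 2. The counts of members called between HFD and normal diet (5) became 1 with all 16 libraries, 3 without the libraries rich in ciliated markers, 3 with only the 2 groups compared, and 3 to 5 leaving out 1 library. For metformin against HFD (2) they became 1 without the low-count filter, 0 with all 16 libraries, 4 without the 2 unmatched libraries, 0 without the ciliated-rich libraries, 1 with only the 2 groups, and 0 to 4 leaving out 1 library. For resveratrol against HFD (1) they became 5 by DESeq2 (4 on the filtered genes), 0 with all 16, 4 without the unmatched, 0 without the ciliated-rich, 0 with only the 2 groups, and 0 to 4 leaving out 1 library. For metformin against normal diet (0) they became 3 by DESeq2 with either set of genes and 0 to 1 leaving out 1 library. The metformin against resveratrol and resveratrol against normal diet counts stayed at 0 under all 24. Counts over all genes varied too: 4050 between HFD and normal diet became 1531 with all 16 libraries; 2442 for metformin against HFD became 4237 by DESeq2 (4388 on the filtered genes), 1541 without the low-count filter, 179 with all 16, 18 without the ciliated-rich libraries, 1142 with only the 2 groups, and 469 to 3710 leaving out 1 library; 732 for resveratrol against HFD became 2153, 351, 395, 17 and 1 in the same order (2137 by DESeq2 on the filtered genes), 1855 without the unmatched libraries, and 1 to 2066 leaving out 1. Metformin against normal diet (299) had 1120 by DESeq2 (1128 on the filtered genes), 1 with all 16, 131 without the unmatched, 33 without the ciliated-rich, 28 with only the 2 groups, and 91 to 423 leaving out 1; resveratrol against normal diet (26) had 412 (420 on the filtered genes), 0, 8, 41 and 0, 15 without the low-count filter, and 6 to 120; metformin against resveratrol (2) had 30 by DESeq2 (40 on the filtered genes), 3 without the ciliated-rich, 0 without the filter, with all 16 or with only the 2 groups, and 0 to 3. Between HFD and normal diet the count over all genes was 4577 with only the 2 groups compared and 2722 to 4979 leaving out 1 library. It was 4285 without the ciliated-rich libraries, which keeps 4 HFD and 3 normal diet libraries. The causes were not tested.

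Of the log2 fold changes of single members, 50 had the opposite sign under an alternative, and none of these passed the threshold in either fit. Between HFD and normal diet, Acsf3 became 0.003 by DESeq2 and 0.006 without the low-count filter; leaving out 1 library gave -0.06 to 0.019 for Acsf3 and -0.041 to 0.074 for Acsf2. For metformin against HFD, Acsf2 became 0.008 with RLE factors and by DESeq2 on the filtered genes, 0.002 with all 16 and 0.016 with only the 2 groups, and -0.042 to 0.068 leaving out 1. For resveratrol against HFD, Acsf3 became -0.028 with all 16, and Acsf2 had -0.155 to 0.073 leaving out 1. For metformin against resveratrol, all 16 gave 0.179 for Acsf3, 0.056 for Acss2 and 0.145 for Acsm5, the fit without the ciliated-rich libraries gave 0.032 for Acsf3 and -0.208 for Acss1, and leaving out 1 gave -0.043 to 0.134 for Acss1, -0.254 to 0.004 for Acss2 and -0.074 to 0.147 for Acsf2. For metformin against normal diet, Acsf2 became -0.008 without the unmatched and -0.006 without the ciliated-rich libraries, Acss1 became -0.16 without the latter, and leaving out 1 gave -0.247 to 0.365 for Acss2 and -0.014 to 0.07 for Acsf2. For resveratrol against normal diet, all 16 gave -0.043 for Acsf3 and -0.141 for Acss2, the fit without the ciliated-rich libraries -0.031 for Acss2, and leaving out 1 gave -0.05 to 0.168 for Acss1, -0.118 to 0.5 for Acss2, -0.41 to 0.025 for Acss3 and -0.12 to 0.1 for Acsf2.

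No paired analysis was possible because the full animal codes of any pair of groups share at most 1 number, and the labels do not say what the parts of a code stand for. At 51 to 72 counts, the Acsm3 levels of HFD 1 to 3 are the least precise of the members. The pathway lists were recounted with all 16 libraries, without the ciliated-rich libraries and without HFD unmatched, alternatives chosen after the data had been seen.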
